A study of Mus musculus with 25 samples.

Results

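The fecal bacteria of mice that had ovariectomy and PBS were set against those of mice that had sham surgery. The libraries were the 5 whose columns are named OVX+PBS and the 5 named Sham, 10 of the 25 libraries in the series. OVX+PBS mice were C57BL/6 mice with ovariectomy, the removal of the ovaries, and PBS, a buffered saline used as a vehicle. OVX mice had ovariectomy with no agent named, and their 5 libraries stand beside the comparison as another group without an active agent. Sham mice had sham surgery with no agent named. All groups shared the C57BL/6 strain and feces as the tissue. The dose, route and duration of PBS, the age of the mice and their cages are not given in the labels. All samples are labelled male, at odds with ovariectomy, so the sex of the mice cannot be stated. The labels give each library as a separate numbered sample and say nothing about cages or days, so that p-values reflect no more than the spread between libraries.

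Removal of the ovaries ends most estrogen production and is the usual rodent model of bone loss after menopause. The mouse gut is dominated by Firmicutes, among them the Lachnospiraceae and Oscillospiraceae, which ferment fibre to short-chain fatty acids, and by Bacteroidetes, among them the Muribaculaceae, which break down plant and host polysaccharides. Gut bacteria also form lactic acid, remodel bile acids and cleave choline to trimethylamine, which the liver oxidises to trimethylamine N-oxide, the metabolite that the study is about.

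Reads of the full-length 16S rRNA gene were counted per amplicon sequence variant (ASV), a distinct sequence left after error removal. The table held 1555 ASVs. Totals were 8558 to 21751 counts per library in OVX+PBS and 9735 to 22404 in Sham. OVX+PBS replicate 1 and Sham replicates 3 and 4, each with more than 12000 counts, were deeper than the other 7. Abundances are given as shares of a library's counts. Log2 fold changes rest on counts rescaled between libraries (TMM scaling) unless another scaling is named. On either scale, fewer bacteria of a kind and more of the others cannot be told apart. Genus and species names are those of the deposited taxonomy, and no enzyme was measured.

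The OVX+PBS community was poorer in variants than the Sham community. The expected number of ASVs in 8498 reads, the lowest total of the series, was 337, 209, 226, 159 and 130.0 in OVX+PBS replicates 1 to 5, against 320.5, 346, 357, 416 and 350.3 in Sham replicates 1 to 5. The groups overlapped through OVX+PBS replicate 1, which lay above Sham replicate 1, and the other 4 OVX+PBS libraries lay below every Sham library. Richness averaged 212 ± 79.5 in OVX+PBS and 358 ± 35.1 in Sham (SD, n = 5 each). It fell by 145.8 ASVs in OVX+PBS (exact two-sided permutation test, p = 0.0159; adjusted p = 0.0212 over 4 community measures). Without the 3 deep libraries the difference was -158 ASVs (exact permutation p = 0.0286, the smallest that 4 against 3 libraries allow).

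Shannon diversity fell as well. The Shannon index, which rises with the number of variants and with the evenness of their shares, was 4.44, 4.04, 4.36, 3.93 and 3.41 in the OVX+PBS libraries, against 4.77, 4.97, 4.71, 5.03 and 5.05 in the Sham libraries. All OVX+PBS libraries lay below all Sham libraries. The index averaged 4.04 ± 0.408 in OVX+PBS and 4.91 ± 0.156 in Sham (SD, n = 5 each), and it fell by 0.868 (exact permutation p = 0.00794, as small as 5 against 5 can give; adjusted p = 0.0159). Counts of at least 1 read were found for 66, 55, 57, 49 and 43 genera in the OVX+PBS libraries, against 68, 66, 73, 71 and 66 genera in the Sham libraries. These numbers are not corrected for depth. At equal depth the expected number of genera was lower by 14.5 in OVX+PBS (exact permutation p = 0.00794).

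Group membership accounted for an R2 of 0.276 of the squared Bray-Curtis distances between the ASV shares of the 10 libraries (exact permutation p = 0.00794; adjusted p = 0.0159). Bray-Curtis distance is 0 for identical communities and reaches its upper end when no ASV is shared. Its mean was 0.551 between OVX+PBS and Sham libraries, 0.454 among OVX+PBS libraries and 0.477 among Sham libraries. The mean distance of OVX+PBS replicates 1 to 5 to the Sham libraries was 0.489, 0.531, 0.469, 0.579 and 0.685. Replicate 5, the library with the fewest ASVs, lay farthest from Sham.

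**Figure D1:**
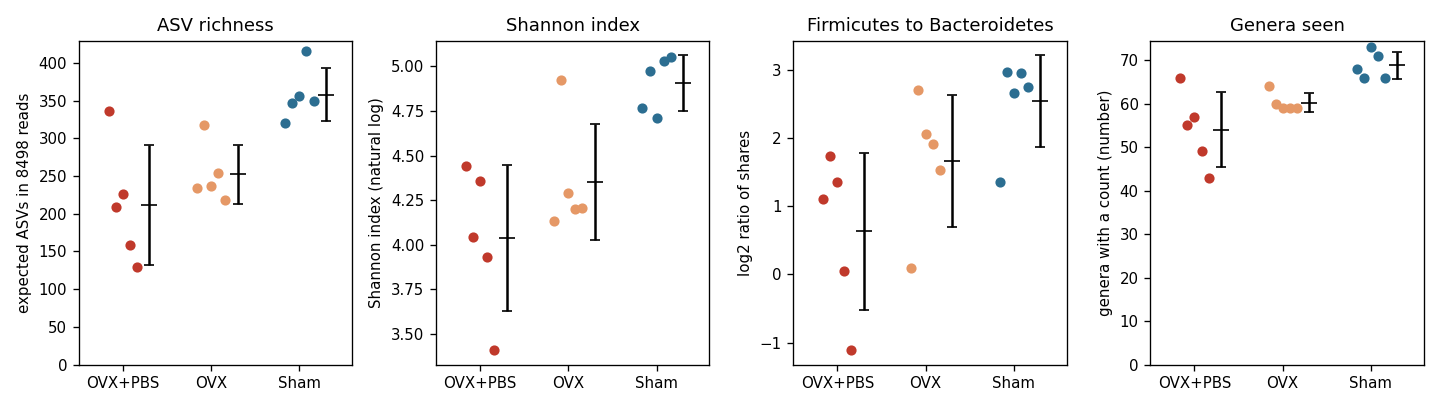
ASV richness (expected ASVs in 8498 reads), Shannon index, log2 ratio of Firmicutes to Bacteroidetes shares and number of genera seen, for OVX+PBS, OVX and Sham libraries. Points are libraries in order of replicate number, and bars show the mean and SD (n = 5 per group). The Shannon values of OVX+PBS lie between 3.41 and 4.44, below all 5 Sham values.

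At the rank of phylum, Bacteroidetes rose and Firmicutes fell in OVX+PBS. Bacteroidetes held 30.5%, 22.3%, 27.2%, 48.3% and 66.5% of the counts in the OVX+PBS libraries, against 27.4%, 11.0%, 12.5%, 11.1% and 12.3% in the Sham libraries. Sham replicate 1 stood apart from the other 4 Sham libraries and overlapped with OVX+PBS, and OVX+PBS replicates 4 and 5 were the highest. The mean was 39.0% ± 18.3 in OVX+PBS and 14.8% ± 7.03 in Sham, a difference of 24.1 points (SD, n = 5 each; exact permutation p = 0.0238; adjusted p = 0.0357 over the 3 phyla that averaged at least 1%). Firmicutes averaged 58.3% ± 17.8 in OVX+PBS and 80.8% ± 6.73 in Sham, a difference of -22.5 points (exact permutation p = 0.0159; adjusted p = 0.0357). Verrucomicrobia, which here is the mucin-degrading genus Akkermansia, averaged 1.61% ± 1.03 in OVX+PBS and 3.34% ± 2.64 in Sham (adjusted exact p = 0.222).

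On the log2 scale, the Firmicutes to Bacteroidetes ratio was 1.11, 1.74, 1.36, 0.055 and -1.10 in the OVX+PBS libraries, against 1.36, 2.97, 2.66, 2.96 and 2.75 in the Sham libraries. It averaged 0.63 ± 1.15 in OVX+PBS and 2.54 ± 0.67 in Sham and fell by 1.91 (exact permutation p = 0.0238; adjusted p = 0.0238). The call was lost without the 3 deep libraries, where the difference was -1.85 (exact permutation p = 0.171).

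Within these phyla, Muribaculaceae and Lachnospiraceae were the families whose mean shares lay farthest apart. Lachnospiraceae held 20.2%, 12.4%, 17.2%, 10.2% and 11.8% of the counts in the OVX+PBS libraries, against 27.4%, 36.5%, 23.7%, 33.3% and 46.2% in the Sham libraries. Every OVX+PBS library lay below every Sham library. Lachnospiraceae averaged 14.3% ± 4.20 in OVX+PBS and 33.4% ± 8.71 in Sham (SD, n = 5 each), with a log2 fold change of -0.73 ± 0.48 (SE; adjusted p = 0.314, edgeR's quasi-likelihood test). Scaled by library totals alone, the log2 fold change of the family was -1.22. Of 28 families tested, edgeR called 0 (0.0%), and 6 had an unadjusted p under 0.05 (21.4%). DESeq2 called 5 (17.9%), of which Muribaculaceae and Enterobacteriaceae were higher and Clostridiaceae, Erysipelotrichaceae and Christensenellaceae lower in OVX+PBS. Limma, on centred log-ratios, called Clostridiaceae alone (1 family, 3.57%).

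Muribaculaceae counts were all named Duncaniella, a genus of polysaccharide degraders. Duncaniella held 28.2%, 21.3%, 24.7%, 44.9% and 61.9% in the OVX+PBS libraries, against 23.7%, 9.84%, 11.7%, 9.82% and 11.1% in the Sham libraries. The groups overlapped only through Sham replicate 1, and in OVX+PBS replicate 5 Duncaniella made up most of the library (95% Wilson interval 60.9% to 62.9%, which covers counting error only). It averaged 36.2% ± 17.0 in OVX+PBS and 13.2% ± 5.91 in Sham, with a log2 fold change of 2.33 ± 0.72 as a genus (SE; adjusted p = 0.0645, edgeR). DESeq2 placed Duncaniella past the threshold. With library totals as the only scaling its log2 fold change was 1.45. Tested as a family, Muribaculaceae gave 2.07 ± 0.77 (SE; adjusted p = 0.0939, edgeR).

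Non-overlapping families numbered 4 of 28 (14.3%), all lower in OVX+PBS. Besides Lachnospiraceae, 3 families lay lower in all OVX+PBS libraries than in any Sham library, and since they are rarer than 1% they were chosen after their values were seen. Clostridiaceae, spore-forming fermenters, held 0.336%, 0.133%, 0.308%, 0.117% and 0% in OVX+PBS libraries and 1.18%, 1.55%, 1.31%, 1.39% and 1.20% in Sham libraries (edgeR, adjusted p = 0.0765). Besides DESeq2 and limma, Clostridiaceae were called lower by edgeR without a filter, with only the 2 groups in the fit and with the replicate block. Erysipelotrichaceae averaged 0.296% ± 0.124 in OVX+PBS and 0.911% ± 0.353 in Sham (edgeR, adjusted p = 0.121). Bacillaceae were seen in no OVX+PBS library and in all 5 Sham libraries, at 0.0268% to 0.0822%, or 5 to 8 counts (edgeR, adjusted p = 0.0939). Against a floor of 3 counts per OVX+PBS library, their mean was at least 1.85-fold lower in OVX+PBS, and at least 1.60-fold lower without Sham replicate 1.

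The other families above 1% overlapped between the groups. Oscillospiraceae, which include many fibre fermenters, held 25.1%, 21.9%, 25.5%, 21.5% and 5.13% in OVX+PBS libraries and 22.3% to 26.6% in Sham libraries. Their low mean in OVX+PBS, 19.8% ± 8.41, came from replicate 5, and the Sham mean was 24.2% ± 1.85 (SD, n = 5 each; edgeR, adjusted p = 0.921). Lactobacillaceae averaged 16.3% ± 9.23 in OVX+PBS and 12.03% ± 6.49 in Sham. Eubacteriaceae averaged 2.44% ± 1.16 in OVX+PBS and 3.23% ± 1.21 in Sham, and Peptococcaceae 0.994% ± 0.898 in OVX+PBS and 2.03% ± 0.664 in Sham. Counts of the order Eubacteriales with no family averaged 1.75% ± 0.373 in OVX+PBS and 0.758% ± 0.545 in Sham; in OVX+PBS nearly all of them were Lawsonibacter. Family XIII averaged 1.20% ± 0.743 in OVX+PBS and 0.939% ± 0.0953 in Sham, and Christensenellaceae 0.623% ± 0.333 in OVX+PBS and 1.40% ± 0.481 in Sham. Bacteroidaceae, all named Bacteroides, averaged 2.22% ± 0.973 in OVX+PBS and 1.25% ± 0.882 in Sham. Adjusted p-values of these 8 families in edgeR were 0.121 to 0.921.

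**Figure D2:**
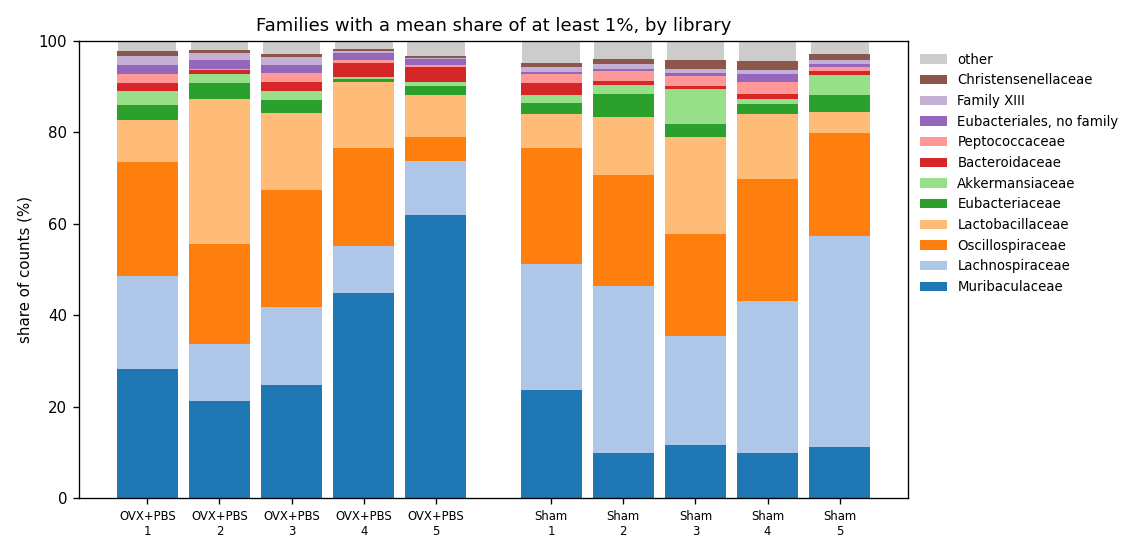
Share of counts (%) of each family with a mean of at least 1% in the 10 libraries, stacked by library, with OVX+PBS replicates 1 to 5 left of Sham replicates 1 to 5. The Muribaculaceae block reaches 61.9% in OVX+PBS replicate 5, and the Lachnospiraceae block is at most 20.2% in OVX+PBS and at least 23.7% in Sham.

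Most of the difference in expected ASVs lay in Lachnospiraceae. The family had 113, 63.9, 65.0, 40.0 and 22.0 expected ASVs in 8498 reads in the OVX+PBS libraries, against 121, 154, 133, 185 and 173 in the Sham libraries. The groups did not overlap, and their means, 60.8 ± 34.2 in OVX+PBS and 153 ± 26.7 in Sham (SD, n = 5 each), differed by more ASVs than those of any other family. Clostridiaceae averaged 2.42 ± 2.11 expected ASVs in OVX+PBS and 11.5 ± 2.77 in Sham, and Eubacteriaceae 6.48 ± 2.69 in OVX+PBS and 13.6 ± 3.88 in Sham. Oscillospiraceae averaged 74.9 ± 27.0 in OVX+PBS and 91.7 ± 7.16 in Sham, with OVX+PBS replicate 1, at 117, above all Sham libraries. Muribaculaceae went the other way, with 14.2 ± 1.48 in OVX+PBS and 11.2 ± 1.30 in Sham. The 8498 reads are drawn from the whole library, so the expected ASVs of a family also depend on its share. Lachnospiraceae made up 643 of the 1555 ASVs in the table and 153 of the 358 expected ASVs in Sham. These counts per family are described without a test.

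**Figure D3:**
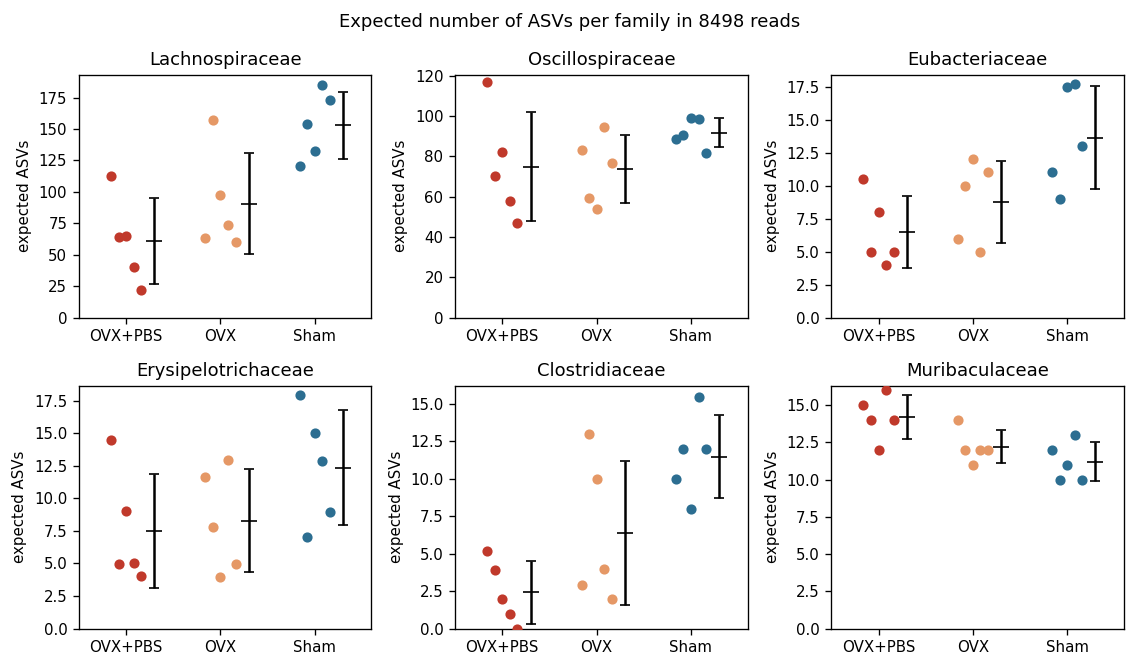
Expected number of ASVs in 8498 reads for 6 families in OVX+PBS, OVX and Sham libraries. Points are libraries in order of replicate number, and bars show the mean and SD (n = 5 per group). Lachnospiraceae lie between 22.0 and 113 in OVX+PBS and between 121 and 185 in Sham.

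Among genera, edgeR's quasi-likelihood test called 1 of 81 (1.23%), and 17 had an unadjusted p under 0.05 (21.0%). The called genus was Lawsonibacter, an anaerobe whose type species makes butyrate. Lawsonibacter held 2.11%, 2.08%, 1.65%, 1.59% and 1.23% in the OVX+PBS libraries, against 0.380%, 0.266%, 0.0633%, 0.620% and 0.336% in the Sham libraries. It was higher in all 5 OVX+PBS libraries than in any Sham library. Its mean was 1.73% ± 0.368 in OVX+PBS and 0.333% ± 0.201 in Sham (SD, n = 5 each), and it rose with a log2 fold change of 3.06 ± 0.76 (SE; adjusted p = 0.0288, edgeR). The call was lost with plain library totals (log2 fold change 2.38, adjusted p = 0.0761), with exact permutation of the shares (adjusted p = 0.0857) and without the 3 deep libraries (adjusted p = 0.209). It was also lost without OVX+PBS replicate 2 (edgeR, adjusted p = 0.0502) and without Sham replicates 1, 2, 3 and 5 in turn (edgeR, adjusted p = 0.0655, 0.0964, 0.112 and 0.0871). The direction was the same under all 22 alternatives.

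Other tools called other numbers of genera. DESeq2 called 8 of 81 (9.88%), of which Lawsonibacter, Duncaniella, Gluceribacter, Ihubacter, Lactobacillus and Shigella were higher and Clostridium and Neglecta lower in OVX+PBS. With only the OVX+PBS and Sham libraries in the fit, edgeR called 7 of the 57 it then tested (12.3%), of which Lawsonibacter, Duncaniella and Lactobacillus were higher and Butyribacter, Clostridium, Hungatella and Marvinbryantia lower. The median log2 fold change over the 81 genera was -0.48 with TMM scaling and -1.08 with plain totals. Small positive estimates turned negative with plain totals, as for Acetivibrio (0.14 with TMM scaling and -0.38 with plain totals) and Anaerobacterium (0.14 and -0.36).

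Lactic acid bacteria overlapped between the groups. Ligilactobacillus, here mainly the mouse gut species Ligilactobacillus murinus, held 8.87%, 30.0%, 16.6%, 13.2% and 9.01% in the OVX+PBS libraries, against 7.42%, 12.5%, 21.0%, 13.9% and 4.46% in the Sham libraries. The ranges overlapped, with the highest share in OVX+PBS replicate 2 (log2 fold change 1.02 ± 0.56, SE, with TMM scaling and 0.39 with plain totals; edgeR, adjusted p = 0.269). Lactobacillus held 0.198%, 1.64%, 0.240%, 1.16% and 0.374% in OVX+PBS and 0.0822%, 0.133%, 0.299%, 0.330% and 0.0197% in Sham. Here too the groups overlapped, with OVX+PBS replicates 2 and 4 highest, and its log2 fold change was 2.74 ± 0.99 with TMM scaling and 2.04 with plain totals (SE; adjusted p = 0.132, edgeR).

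Genera known for breaking down cellulose and other plant fibre overlapped between the groups. Acetivibrio averaged 6.25% ± 3.92 in OVX+PBS and 8.11% ± 1.96 in Sham, and Ruminococcus 6.14% ± 4.68 in OVX+PBS and 5.50% ± 1.76 in Sham (SD, n = 5 each). Anaerobacterium averaged 4.93% ± 2.93 in OVX+PBS and 6.33% ± 2.21 in Sham, and the adjusted p-values of the 3 genera in edgeR were 0.507 to 0.898. OVX+PBS replicate 5 was the lowest of the 10 libraries in all 3 genera, at 1.75%, 0.340% and 1.49%. The list of fibre-degrading clostridia, which these genera and Ruminiclostridium make up, summed to 21.3%, 19.6%, 24.2%, 19.5% and 3.59% in OVX+PBS libraries and to 19.5% to 22.0% in Sham libraries.

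Butyrate producers lay on both sides of 0. Of 9 listed genera tested, 1 was called, Lawsonibacter, 5 estimates were above 0 and 4 below with TMM scaling, and the median log2 fold change was 0.10. Over all 81 genera 1 was called (1.23%), 30 estimates were above 0 (37.0%) and 50 below, and the median was -0.48. The estimate of Eubacterium, 0.23 with TMM scaling, was -0.40 with plain totals. Kineothrix, a butyrate producer of the Lachnospiraceae, held 3.60%, 1.55%, 4.76%, 1.41% and 0.509% in OVX+PBS, against 9.10%, 7.77%, 4.81%, 4.19% and 18.5% in Sham. OVX+PBS replicate 3 was the only OVX+PBS library within the Sham range (log2 fold change -1.43 ± 0.73, SE, with TMM scaling and -1.91 with plain totals; edgeR, adjusted p = 0.238). Eubacterium averaged 2.44% ± 1.16 in OVX+PBS and 3.23% ± 1.22 in Sham (edgeR, adjusted p = 0.858). The summed share of the list was 7.95% ± 2.92 in OVX+PBS and 15.1% ± 6.71 in Sham (SD, n = 5 each), and the lists are described without a test.

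Lachnospiraceae genera lay mostly below 0 with TMM scaling. Of 23 tested, 18 estimates were negative and 5 positive, with a median log2 fold change of -1.49, against 50 negative and 30 positive (37.0%) of 81 with a median of -0.48 over all genera, and 0 were called. Genera whose groups did not overlap numbered 7 of 81 (8.64%), 1 higher (1.23%) and 6 lower (7.41%) in OVX+PBS. Of the 6 lower ones, 3 were Lachnospiraceae, namely Lachnoclostridium, Marvinbryantia and Lacrimispora, and the others were Clostridium, Hungatella and Breznakia. Lacrimispora, Hungatella and Breznakia are outside the rule for naming genera and were chosen after their values were seen.

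Lachnoclostridium held 2.40%, 2.28%, 1.65%, 0.0818% and 0.0340% in the OVX+PBS libraries, against 4.03%, 7.26%, 4.19%, 12.5% and 6.03% in the Sham libraries. OVX+PBS replicates 4 and 5 were far below the other 3, and the groups did not overlap (log2 fold change -1.94 ± 1.01, SE, with TMM scaling and -2.40 with plain totals; edgeR, adjusted p = 0.238). The genus name here covers Clostridium scindens, the best-known bacterium with bile acid 7-alpha-dehydroxylation, which turns primary into secondary bile acids. The 44 ASVs with that species name summed to 1.52%, 1.67%, 1.28%, 0.0818% and 0.0340% in OVX+PBS libraries and to 3.08%, 5.77%, 3.22%, 9.65% and 2.98% in Sham libraries, again without overlap.

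Acetogens, which build acetate from hydrogen and carbon dioxide, were represented by Marvinbryantia and Blautia. Marvinbryantia held 0.115%, 0.142%, 0.103%, 0.0234% and 0% in OVX+PBS, against 0.596%, 1.07%, 0.271%, 1.19% and 1.56% in Sham. The groups did not overlap (log2 fold change -3.09 ± 1.25, SE, with TMM scaling and -3.58 with plain totals; edgeR, adjusted p = 0.196). Blautia overlapped, with 0.432% ± 0.405 in OVX+PBS and 1.62% ± 0.954 in Sham (log2 fold change -1.26 with TMM scaling and -1.90 with plain totals; edgeR, adjusted p = 0.238). Gluceribacter was the most abundant Lachnospiraceae genus in OVX+PBS, at 6.62% ± 2.66, against 5.14% ± 1.22 in Sham (log2 fold change 1.17 ± 0.50, SE, with TMM scaling and 0.36 with plain totals; edgeR, adjusted p = 0.214). Schaedlerella averaged 0.330% ± 0.397 in OVX+PBS and 2.30% ± 1.54 in Sham (edgeR, adjusted p = 0.238).

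Trimethylamine-forming genera, those in which some members cleave choline or related compounds, were listed because of that metabolite. Their summed share was 2.62%, 2.37%, 1.92%, 0.467% and 1.14% in the OVX+PBS libraries, against 5.16%, 8.66%, 5.34%, 13.7% and 7.06% in the Sham libraries. All OVX+PBS libraries lay below all Sham libraries, and the means were 1.70% ± 0.891 in OVX+PBS and 7.99% ± 3.52 in Sham (SD, n = 5 each). Of 4 genera tested 0 were called, 1 estimate was above 0 and 3 below, against 1 called (1.23%), 30 above and 50 below of all 81. The median log2 fold change of the list was -2.14, against -0.48 over all 81. The groups did not overlap for 3 of the 4, all lower in OVX+PBS, against 6 of 81 (7.41%), and Lachnoclostridium held most of the list's counts in Sham. The ASVs named Clostridium scindens, described above, are part of that Lachnoclostridium share. They averaged 0.916% in OVX+PBS and 4.94% in Sham, so the list is not a separate observation from them.

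The other members of that list were rare. Hungatella, which holds choline cleavers, was at 0.202%, 0.0533%, 0.240%, 0.117% and 0% in OVX+PBS, against 0.472%, 0.984%, 0.927%, 0.973% and 0.938% in Sham (edgeR, adjusted p = 0.227). Clostridium was seen in a single OVX+PBS library, replicate 2, at 0.0356%, and held 0.657%, 0.410%, 0.225%, 0.268% and 0.0888% in the Sham libraries (log2 fold change -4.76 ± 1.66, SE, with TMM scaling and -5.32 with plain totals; edgeR, adjusted p = 0.123). Neither genus overlapped between the groups.

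Shigella, a facultative anaerobe of the Enterobacteriaceae, was the member of the list with a positive estimate. It was seen in OVX+PBS replicates 4 and 5, at 0.269% and 1.11%, and in no Sham library. The 95% Wilson intervals were 0.179% to 0.403% and 0.911% to 1.35%, on 23 and 98 counts. OVX+PBS replicates 4 and 5 were also the libraries highest in Duncaniella and lowest in Lachnoclostridium. Against a floor of 3 counts per Sham library, the mean share was at least 11.3-fold higher in OVX+PBS (edgeR, adjusted p = 0.0645), and without OVX+PBS replicate 5 at least 2.76-fold higher. OVX+PBS replicate 1 held 0.0230% named Escherichia, a genus that the 16S gene hardly separates from Shigella.

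Several rare genera were seen in Sham libraries and in none of OVX+PBS. Neglecta was at 0% in all OVX+PBS libraries and at 0%, 0.0512%, 0.461%, 0.852% and 0.138% in the Sham libraries. A count of 0 allows a share of up to 0.0138% to 0.0351% in an OVX+PBS library, and against this floor the mean of Neglecta was at least 10.5-fold lower in OVX+PBS (edgeR, adjusted p = 0.0645), and without Sham replicate 4 at least 5.65-fold lower. Ornithinibacillus, of the Bacillaceae, was at most 0.0822% in a Sham library and 0% in all OVX+PBS libraries (edgeR, adjusted p = 0.196). Its Sham mean was 1.29 times the floor, and 0.90 times the floor without Sham replicate 1, so no difference can be stated without that library. The bracketed genus [Bacteroides], a name for species awaiting another genus, was at least 1.70-fold lower (edgeR, adjusted p = 0.214), and at least 1.23-fold lower without Sham replicate 4. Both of these were seen in 4 of 5 Sham libraries.

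Mucus-associated and other abundant genera overlapped. Akkermansia held 3.08%, 1.88%, 1.85%, 0.514% and 0.725% in OVX+PBS and 1.76%, 1.88%, 7.57%, 1.22% and 4.27% in Sham, with the highest shares in Sham replicates 3 and 5 (edgeR, adjusted p = 0.601). Bacteroides, a degrader of diet and mucus polysaccharides, held 1.86%, 0.942%, 1.92%, 3.03% and 3.35% in OVX+PBS and 2.81%, 0.932%, 0.645%, 0.991% and 0.888% in Sham. Sham replicate 1 was again the highest of its group, and OVX+PBS replicates 4 and 5 the highest of all (log2 fold change 1.65 ± 0.77, SE, with TMM scaling and 0.82 with plain totals; edgeR, adjusted p = 0.215). Peptococcus averaged 0.994% ± 0.898 in OVX+PBS and 2.00% ± 0.674 in Sham (edgeR, adjusted p = 0.624). The genera listed as markers of reagent contamination, as sulfate reducers (Desulfovibrio and Bilophila) and as segmented filamentous bacteria had 0 counts in the table. Desulfosporosinus, a sulfate reducer outside that list, held 0.0307% in Sham replicate 2.

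**Figure D4:**
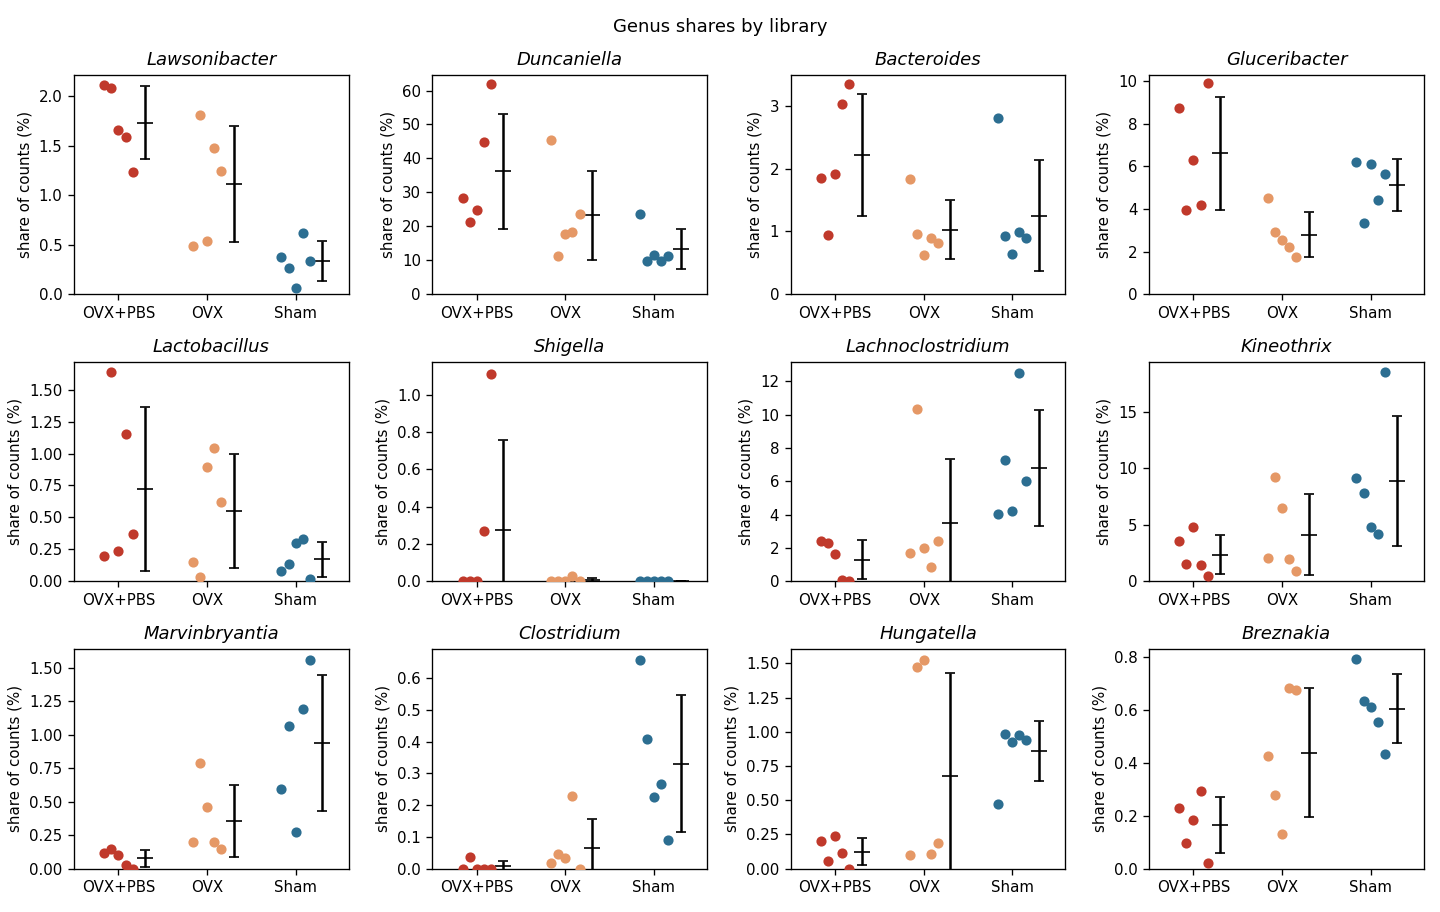
Share of counts (%) of 12 genera in OVX+PBS, OVX and Sham libraries, with points in order of replicate number and bars for the mean and SD (n = 5 per group, bars cut at 0). Lawsonibacter lies between 1.23% and 2.11% in OVX+PBS, above the Sham maximum of 0.620%, while Lachnoclostridium, Marvinbryantia, Clostridium, Hungatella and Breznakia lie below their Sham minimum in every OVX+PBS library.

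At the level of single variants, edgeR called 0 of 379 ASVs (0.0%), while 97 had an unadjusted p under 0.05 (25.6%), 23 higher (6.07%) and 74 lower (19.5%) in OVX+PBS. DESeq2 called 11 of the 171 with an adjusted p (6.43%). Variants whose groups did not overlap numbered 13 of 379 (3.43%), 3 higher (0.792%) and 10 lower (2.64%) in OVX+PBS. The 5 ASVs with the smallest p-values all had an adjusted p of 0.107 in edgeR. Of these, 4 were at 0% in all OVX+PBS libraries.

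ASV_52, named Anaerobacterium chartisolvens after a cellulose degrader, held 0.277%, 0.0307%, 2.38%, 1.08% and 0% in the Sham libraries, and its mean was at least 26.2-fold lower in OVX+PBS, and at least 12.1-fold lower without Sham replicate 3. ASV_62, named Clostridium scindens, was at least 16.8-fold lower and was seen in 4 of 5 Sham libraries. ASV_105, named Robinsoniella peoriensis, of the Lachnospiraceae, was seen in all 5 Sham libraries, at 0.0518% to 0.545%, and was at least 10.6-fold lower. ASV_70, named Ligilactobacillus murinus, was seen in 2 Sham libraries only, at 0.225% and 0.192%, and was at least 2.90-fold lower, or at least 1.67-fold lower without Sham replicate 3. ASV_56, named Oscillibacter valericigenes after a valerate former, went the other way, with 0.929%, 0.169% and 0.148% in OVX+PBS replicates 1 to 3, 0% in replicates 4 and 5 and 0% in all Sham libraries. Its mean was at least 10.2-fold higher in OVX+PBS, and at least 3.26-fold higher without OVX+PBS replicate 1.

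Named by the same rule were the most abundant ASVs of the 5 most abundant genera. ASV_1, named Duncaniella freteri, held 10.3%, 8.12%, 8.98%, 8.74% and 6.58% in OVX+PBS, against 7.15%, 3.07%, 2.45%, 2.92% and 3.41% in Sham. Unlike the genus total, ASV_1 did not peak in OVX+PBS replicates 4 and 5, and it overlapped with Sham only through Sham replicate 1 (log2 fold change 1.06 ± 0.51, SE; edgeR, adjusted p = 0.178). ASV_23, named Acetivibrio straminisolvens, held 0.694%, 0.862%, 0.479%, 0% and 0% in OVX+PBS, against 1.12%, 1.80%, 1.63%, 2.31% and 3.00% in Sham. Its groups did not overlap although those of its genus did (edgeR, adjusted p = 0.257). ASV_3 of Ligilactobacillus murinus, ASV_14 of Gluceribacter canis and ASV_4 of Ruminococcus callidus overlapped, with adjusted p-values of 0.805 to 1.0 in edgeR.

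Of the ASVs seen in these 10 libraries, 585 were seen in OVX+PBS and 908 in Sham, and 370 in both, which is 63.2% of those in OVX+PBS and 40.7% of those in Sham. The 538 ASVs seen in Sham and not in OVX+PBS held 14.4%, 16.4%, 14.0%, 16.6% and 19.7% of the counts of the Sham libraries, and 299 of them were Lachnospiraceae, which made up 422 of the 908 seen in Sham. The 215 ASVs seen in OVX+PBS and not in Sham held 4.64%, 6.28%, 2.94%, 13.1% and 14.7% of the counts of the OVX+PBS libraries, so these variants were most abundant in replicates 4 and 5. Of these 215, 69 were Lachnospiraceae, which made up 192 of the 585 seen in OVX+PBS. Of 37 ASVs seen in all 5 OVX+PBS libraries, 0 were missing from all Sham libraries. Of 79 ASVs seen in all 5 Sham libraries, 4 were missing from all OVX+PBS libraries. These were ASV_105, ASV_143 of Schaedlerella arabinosiphila, ASV_163 of Solibaculum mannosilyticum and ASV_273 of Lachnoclostridium pacaense. The presence of a variant depends on depth, and the Sham libraries held 69396 counts in all, against 59153 in OVX+PBS.

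The OVX group was ovariectomised without PBS in its label. Its means lay between those of OVX+PBS and Sham for richness, the Shannon index and the log2 ratio of the phyla. Richness was 212 ± 79.5 in OVX+PBS, 252.3 ± 39.2 in OVX and 358 ± 35.1 in Sham, and the Shannon index was 4.04 ± 0.408 in OVX+PBS, 4.35 ± 0.324 in OVX and 4.91 ± 0.156 in Sham (SD, n = 5 each). None of the 4 community measures passed the test between OVX+PBS and OVX. The differences, OVX+PBS minus OVX, were -40.2 ASVs (exact permutation p = 0.325), -0.314 for the Shannon index (exact permutation p = 0.246) and -1.03 for the log2 ratio of the phyla (exact permutation p = 0.159), with an R2 of 0.161 between them (exact permutation p = 0.143). These p-values do not show that the 2 groups were alike. The comparisons of OVX and of OVX+PBS with Sham share the same Sham libraries, so the values below are not independent of each other. Against Sham, richness differed by -145.8 ASVs in OVX+PBS and by -105.6 in OVX. The Shannon index differed by -0.868 in OVX+PBS and by -0.554 in OVX, and the log2 ratio by -1.91 in OVX+PBS and by -0.88 in OVX. R2 was 0.276 for OVX+PBS and 0.220 for OVX. For OVX against Sham, the exact permutation p was 0.00794 for richness and 0.0238 for the Shannon index and for R2 (adjusted p = 0.0317 for each). For the log2 ratio it was 0.127, so that measure did not pass in OVX.

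By genus, edgeR called 0 of 81 between OVX+PBS and OVX (0.0%), with 11 at an unadjusted p under 0.05 (13.6%). Lawsonibacter had a log2 fold change against Sham of 3.06 ± 0.76 in OVX+PBS and 2.19 ± 0.73 in OVX (SE), and the difference between the ovariectomised groups was 0.87 (edgeR, adjusted p = 0.587). Duncaniella had 2.33 ± 0.72 in OVX+PBS and 1.26 ± 0.70 in OVX (difference 1.07; edgeR, adjusted p = 0.435). Lachnoclostridium had -1.94 ± 1.01 in OVX+PBS and -0.48 ± 0.97 in OVX (difference -1.46; edgeR, adjusted p = 0.461). Gluceribacter had 1.17 ± 0.50 in OVX+PBS and -0.43 ± 0.49 in OVX (difference 1.60; edgeR, adjusted p = 0.162). Blautia had -1.26 ± 0.66 in OVX+PBS and 0.46 ± 0.64 in OVX (difference -1.72; edgeR, adjusted p = 0.207). None of these differences passed the threshold. Enterobacteriaceae averaged 0.280% ± 0.477 in OVX+PBS, 0.00593% ± 0.0133 in OVX and 0% in Sham (SD, n = 5 each).

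**Figure D5:**
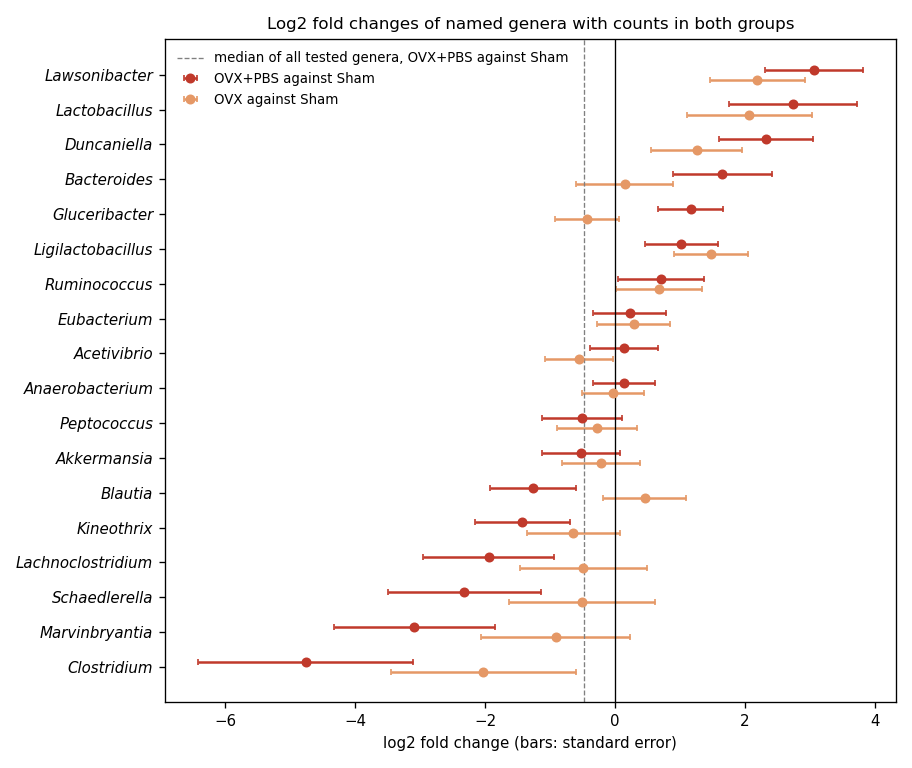
Log2 fold change against Sham of the named genera with counts in both groups, for OVX+PBS (upper point of each pair) and OVX (lower point), with bars for the standard error from edgeR's quasi-likelihood fit, the solid line at 0 and the dashed line at -0.48, the median of 81 genera for OVX+PBS. Both contrasts use the same Sham libraries. Lawsonibacter, at 3.06 and 2.19, lies highest and Clostridium, at -4.76 and -2.02, lowest.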

How the data were processed

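The authors deposited a table of counts per ASV with 7 taxonomic ranks, converted from a BIOM file per the file headers. The submitters' processing notes name Subread alone, without version or role; denoiser, primers and database are not given there or in the labels. All 25 sample columns were mapped by name, 5 of them spelled OVX+GES for OVX+GEX, and 0 were left out. Counts were summed per genus and family and tested with edgeR 4.0.16 (R 4.3.3) on all 25 libraries in 1 fit, with TMM, a minimum count of 3 in 5 libraries, Benjamini-Hochberg adjustment and a threshold of 0.05; the code was tested on simulated data. Standard errors come from the F statistic. Single values were compared by exact permutation over all splits of 5 against 5. The Shannon index uses natural logarithms. Alternatives were TMMwsp, DESeq2 1.42.0, limma 3.58.1 (centred log-ratios of counts plus 0.5), plain totals, other filters, thinning to 8498 counts, the 2 groups alone, a replicate block, leaving out each library and, chosen after seeing the data, leaving out the libraries above 12000 counts.

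Named were phyla and families that averaged at least 1% over the 10 libraries, genera past the threshold, the 15 genera of highest mean share, the 10 genera and 5 ASVs of smallest p, and the most abundant ASV of the 5 most abundant genera. The groups compared, taxon lists and this rule were chosen with earlier results of these data known. Same-numbered OVX+PBS and Sham libraries did not deviate together, so the numbers were not taken as pairs. Intervals and floors of 3 counts cover counting error only, since reads of a PCR product are not independent molecules.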

Additional observations from a re-analysis of the deposited data

Results flagged for a closer look

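Within a group of 5 libraries, 12 of 98 sets of values had a lowest or highest library set apart from the nearest other library. The limit was the 95% critical value of Dixon's test, which chance passes in about 1 in 20 sets. The 98 sets include taxa at 0% in a whole group, which could not be flagged. They also include families whose values repeat those of their only genus. The 12 of 98 can therefore not be set against that rate. Sham replicate 1 accounted for 7 of the 12. It had the lowest log2 ratio of Firmicutes to Bacteroidetes (1.36, next 2.66) and the highest shares of Bacteroidetes (27.4%, next 12.5%), of Muribaculaceae, all Duncaniella (23.7%, next 11.7%), of Bacteroidaceae, all Bacteroides (2.81%, next 0.991%), and of ASV_1 (7.15%, next 3.41%). Without it the log2 ratio differed by -2.20 between OVX+PBS and Sham (exact permutation p = 0.0159). Without Sham replicate 2, 3, 4 or 5 the exact permutation p was 0.0476 each time, and without an OVX+PBS library it was 0.0238 to 0.0317. Sham replicate 4 stood apart in Eubacteriales without a family (1.72%, next 0.622%). OVX+PBS replicate 5 had the highest Shigella share (1.11%, next 0.269%) and the lowest Oscillospiraceae share (5.13%, next 21.5%). OVX+PBS replicate 2 was the only library of its group with Clostridium (0.0356%), and OVX+PBS replicate 1 had the highest share of ASV_56 (0.929%, next 0.169%).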

How the results depend on the processing

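Richness, the Shannon index and the log2 ratio of the phyla kept their direction under all alternatives; R2 has no direction. With the replicate number as a block, whose smallest possible exact p is 0.0625, the differences were -145.8 ASVs (p = 0.125), -0.868 for the Shannon index, -1.91 for the log2 ratio and 0.276 for R2 (exact permutation p = 0.0625 for these 3); the numbers do not pair the libraries, since same-numbered libraries had correlations of -0.158 to 0.092. Without the deep libraries the log2 ratio differed by -1.85. Genera called, 1 in the report, were 0 with plain totals, exact permutation of shares and without the deep libraries, 3 without a filter and with the block, 4 after thinning, 7 with only the 2 groups and 8 with DESeq2, and 0 to 1 when a library was left out. Families called, 0 in the report, were 1 with limma, 2 after thinning, 3 without a filter, 4 with only the 2 groups and with the block and 5 with DESeq2. ASVs called, 0 in the report, were 4 with only the 2 groups, 5 without a filter and 11 with DESeq2.

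Over 43 named taxa and their alternatives, 43 of 930 values changed sign, and 0 of these passed the threshold. With plain totals, exact permutation of shares (in points) and no filter, Acetivibrio gave -0.38, -1.86 and -0.041, Anaerobacterium -0.36, -1.39 and -0.037, and Eubacterium -0.40, -0.788 and -0.064. With a stricter filter Acetivibrio gave -0.019, and without the deep libraries Eubacterium gave -0.0067. Akkermansia gave 0.062 with limma. Eubacteriaceae gave -0.15 with DESeq2 size factors and with its Wald test, -0.40 with plain totals, -0.16 with limma and without the deep libraries, -0.790 points by permutation, -0.24 with a stricter filter and -0.054 with only the 2 groups. Oscillospiraceae gave -0.29 with plain totals, -0.097 with limma, -4.40 points by permutation, -0.16 with a stricter filter and -0.0088 with only the 2 groups. ASV_4 gave 0.086 with DESeq2 size factors and with its Wald test. When a library was left out, log2 fold changes ran from -0.14 to 0.36 for Acetivibrio, -0.10 to 0.39 for Anaerobacterium, -0.78 to 0.059 for Akkermansia, -1.01 to 0.0025 for Akkermansiaceae, -0.040 to 0.33 for Eubacteriaceae, -0.059 to 0.25 for Oscillospiraceae, -0.14 to 0.81 for ASV_3 and -0.11 to 0.63 for ASV_14. The causes were not tested. Depth limits what can be said of shares below 0.0351%, the floor of the shallowest OVX+PBS library.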

Other observations

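Of the 26 Duncaniella ASVs, 15 had enough counts to be tested. Of these, 14 estimates were above 0 and 0 below, with TMM scaling and with plain totals, and the remaining ASV was seen in neither group. Over all 379 ASVs, 123 estimates were above 0 and 246 below with TMM scaling. The median log2 fold change of the Duncaniella ASVs was 1.15, against -1.04 over all 379. Of the 15, 2 had an unadjusted p under 0.05 in edgeR, each higher in OVX+PBS. Over all 379 ASVs 97 did (25.6%), 23 of them higher (6.07%). ASVs of 1 genus in the same libraries are not independent. Lawsonibacter was carried by a single variant. ASV_20, named Lawsonibacter asaccharolyticus and chosen after its values were seen, held 2.04%, 1.95%, 1.62%, 1.52% and 1.18% in OVX+PBS libraries, against 0.236%, 0.123%, 0.0345%, 0.585% and 0.118% in Sham libraries, without overlap (log2 fold change 2.69 ± 0.92, SE; edgeR, adjusted p = 0.107). Of the 8 Lawsonibacter ASVs tested, 3 estimates were above 0 and 4 below, with a median log2 fold change of -0.39. An unadjusted p under 0.05 in edgeR was reached by 2 of them higher and by 2 lower in OVX+PBS.

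Adlercreutzia includes Adlercreutzia equolifaciens, which turns the soy isoflavone daidzein into the estrogen-like compound equol. Of its variants, ASV_74 and ASV_104 were chosen after their values were seen, and neither was called. ASV_74 held 0.115%, 0.178%, 0.217%, 0.140% and 0.113% in OVX+PBS, against 0%, 0%, 0.0749%, 0.107% and 0.0987% in Sham (edgeR, adjusted p = 0.790). ASV_104 was seen in OVX+PBS replicate 2 alone, at 0.0267%, and held 0.113%, 0.184%, 0.213%, 0.210% and 0.207% in Sham (edgeR, adjusted p = 0.130). Neither overlapped between the groups, as held for 13 of all 379 ASVs (3.43%). For ASV_74 the highest Sham share, 0.107%, lay close to the lowest OVX+PBS share, 0.113%. The genus averaged 0.599% ± 0.265 in OVX+PBS and 0.458% ± 0.0576 in Sham (SD, n = 5 each; edgeR, adjusted p = 0.238). Ihubacter, of Family XIII, fell into separate levels within OVX+PBS, with 1.50%, 1.43% and 1.30% in replicates 1 to 3 and 0.269% and 0.249% in replicates 4 and 5, against 0.563% to 0.585% in all Sham libraries.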
